A study of Homo sapiens with 6 samples.

Results

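The mitochondrial genome transcripts described here are the 35 genes whose symbol in the deposited table starts with MT-, out of 16000 genes in all. They comprise 13 messenger RNAs, 2 ribosomal RNAs and 20 transfer RNAs. The rule reads the symbol and no measured value. GENCODE release 29 lists 37 genes on this genome, and the transfer RNA genes MT-TR and MT-TD were not analysed here. The libraries come from LNCaP, an androgen-responsive human cell line established from prostate cancer. Cells were stained with the fluorescent aldehyde dehydrogenase (ALDH) substrate ALDEFLUOR and sorted, per the labels, into the 10% with the highest activity (ALDH high, 3 samples) and the 10% with the lowest (ALDH low, 3 samples). Both groups were grown in RPMI-1640 with 10% FBS and received no further treatment, and the sources used here do not give the time from sort to RNA extraction. The labels do not say whether a group's 3 samples were separate sorts or cultures, so every p-value below measures only the spread between these samples.

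Mitochondria keep a small circular genome of their own, whose messenger RNAs all encode subunits of the respiratory chain complexes and of the ATP synthase. Both strands are transcribed as long precursors by the mitochondrial RNA polymerase, and most RNAs are freed when enzymes cut out the transfer RNAs that punctuate the precursor. Most of the messenger RNAs and the ribosomal RNAs then receive short poly(A) tails inside the organelle, and poly(A) selection can retain them. MT-ND6 is the known exception among the messenger RNAs, as it largely lacks such a tail. Mature transfer RNAs carry no such tail, so their reads below count what poly(A) selection carried along and are not transfer RNA amounts. Reads of the messenger and ribosomal RNAs also depend on how much of each the selection retained.

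The ends of the messenger RNAs show this punctuation. In the reference annotation, 6 of the 13 coding sequences stop with an incomplete stop codon that the poly(A) tail completes. The other 7 end in a whole codon, which is AGA for MT-CO1 and AGG for MT-ND6. The last base of MT-ATP6, chrM:9207, is also annotated as the first base of MT-CO3. Each line gives the last 21 bases of a gene with an incomplete stop codon, followed by the first 9 bases of the next transfer RNA. The lines run 5′ to 3′ on the + strand, with the bases of the incomplete stop codon in capitals. The sequences are from the GENCODE release 29 transcripts (GRCh38), at chrM:4242-4271, chrM:5491-5520, chrM:9970-9999, chrM:10384-10413, chrM:12117-12146 and chrM:15867-15896 in the order printed.
MT-ND1 end, then MT-TI: cagcattccccctcaaaccTAagaaatatg
MT-ND2 end, then MT-TW: cttttatactaataatcttaTagaaattta
MT-CO3 end, then MT-TG: ccatctattgatgagggtctTactctttta
MT-ND3 end, then MT-TR: aaggattagactgaaccgaaTtggtatata
MT-ND4 end, then MT-TH: tcattaccgggttttcctctTgtaaatata
MT-CYB end, then MT-TT: acaaaatactcaaatgggccTgtccttgta

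Other neighbours share bases instead. MT-ATP8 and MT-ATP6, which lie on 1 messenger RNA, overlap by 46 bases at chrM:8527-8572, shown with the MT-ATP6 start codon and the MT-ATP8 stop codon in capitals. MT-ND4L and MT-ND4, likewise on 1 messenger RNA, overlap by 7 bases, shown in capitals within chrM:10746-10775. The sources used here do not say how reads that touch both genes of such a pair were counted.
MT-ATP8 and MT-ATP6 overlap: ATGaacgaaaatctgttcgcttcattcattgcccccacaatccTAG
MT-ND4L end: ctaaacctactccaATGCTAAaactaatcg

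The transfer RNAs on which the results below turn are printed whole, with the anticodon in capitals. MT-TL1 lies on the + strand at chrM:3230-3304. The other four lie on the - strand and are printed as transcribed, MT-TN at chrM:5657-5729, MT-TC at chrM:5761-5826, MT-TY at chrM:5826-5891 and MT-TP at chrM:15956-16023. The anticodon was taken as the middle of a 7-base loop closed by a stem of 5 base pairs, of which MT-TL1 forms 4.
MT-TL1, leucine: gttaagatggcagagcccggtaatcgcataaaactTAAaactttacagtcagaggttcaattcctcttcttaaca
MT-TN, asparagine: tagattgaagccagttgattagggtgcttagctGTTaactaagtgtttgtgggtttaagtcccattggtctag
MT-TC, cysteine: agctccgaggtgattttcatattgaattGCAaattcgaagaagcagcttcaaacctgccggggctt
MT-TY, tyrosine: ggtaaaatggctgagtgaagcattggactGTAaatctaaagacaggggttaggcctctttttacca
MT-TP, proline: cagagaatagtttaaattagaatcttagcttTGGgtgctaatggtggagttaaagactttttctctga

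Recovered gene reads numbered 23721265 to 30467638 per library. All 8 luminal prostate markers were in the table, with a summed level of 191157 to 205747 normalized reads in ALDH high and 186334 to 222442 in ALDH low, while basal, leukocyte, endothelial and fibroblast lists had 1 of 3 markers each. The fibroblast marker COL1A1 had 1469 to 1776 normalized reads in ALDH high libraries and 821 to 1451 in ALDH low libraries, without overlap (difference 0.46, -0.02 to 0.95, limma adjusted p = 0.984), and was lowest in ALDH low 1, as most mitochondrial messenger RNAs were. Its part in the results was not tested. The single basal, leukocyte and endothelial markers (KRT14, CD68 and VWF) overlapped between groups. The libraries did not sort by label. Across genes on the log2 scale, ALDH low 2 had a Pearson r of 0.991 with ALDH high 1 and 0.990 with ALDH high 3, against 0.974 and 0.971 with ALDH low 1 and ALDH low 3. ALDH high 2 was closest to ALDH low 1, at 0.986. The differences of each class are therefore also given without the samples numbered 2 of both groups. These are descriptions across genes, which are not independent replicates.

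A normalized read here is a read count divided by the size factor of its library. The mitochondrial genes together held 4.90%, 2.89% and 4.90% of the gene reads of ALDH high 1, 2 and 3, against 2.01%, 4.55% and 2.996% of those of ALDH low 1, 2 and 3. Values of single libraries are given in this order throughout. The 2 groups overlapped, and ALDH high 2 lay with ALDH low 3 while ALDH low 2 lay with ALDH high 1 and 3. Messenger RNAs made up most of that share, with 3.86%, 2.10% and 3.85% of gene reads across the ALDH high libraries against 1.23%, 3.57% and 2.18% across the ALDH low ones. The difference of the means was 0.945 percentage points, with SDs of 1.02 in ALDH high and 1.18 in ALDH low (n = 3 each), so it was smaller than the spread within either group. Leaving out 1 library at a time gave 0.395, without ALDH low 1, to 1.57, without ALDH low 2. In bulk RNA a change in the number of cells of a kind and a change in RNA per cell cannot be told apart.

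Levels per length differed far more between genes than between groups. Per kb of gene, the mean over the 6 libraries was 136920 normalized reads for MT-RNR2, the large ribosomal RNA, 134506 for MT-CO1 and 126332 for MT-ATP6. MT-ND5 had the lowest level of the messenger RNAs, at 22160 per kb, which spans a 6.07-fold range over the 13. The small ribosomal RNA MT-RNR1, which lies upstream of MT-RNR2 with MT-TV between them, had 20354 per kb, below every messenger RNA. Poly(A) selection may retain these RNAs unequally, so this ranks reads and not RNA amounts. Transfer RNAs covered a much wider range, from 152 per kb for MT-TM to 91537 for MT-TN.

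**Figure D1:**
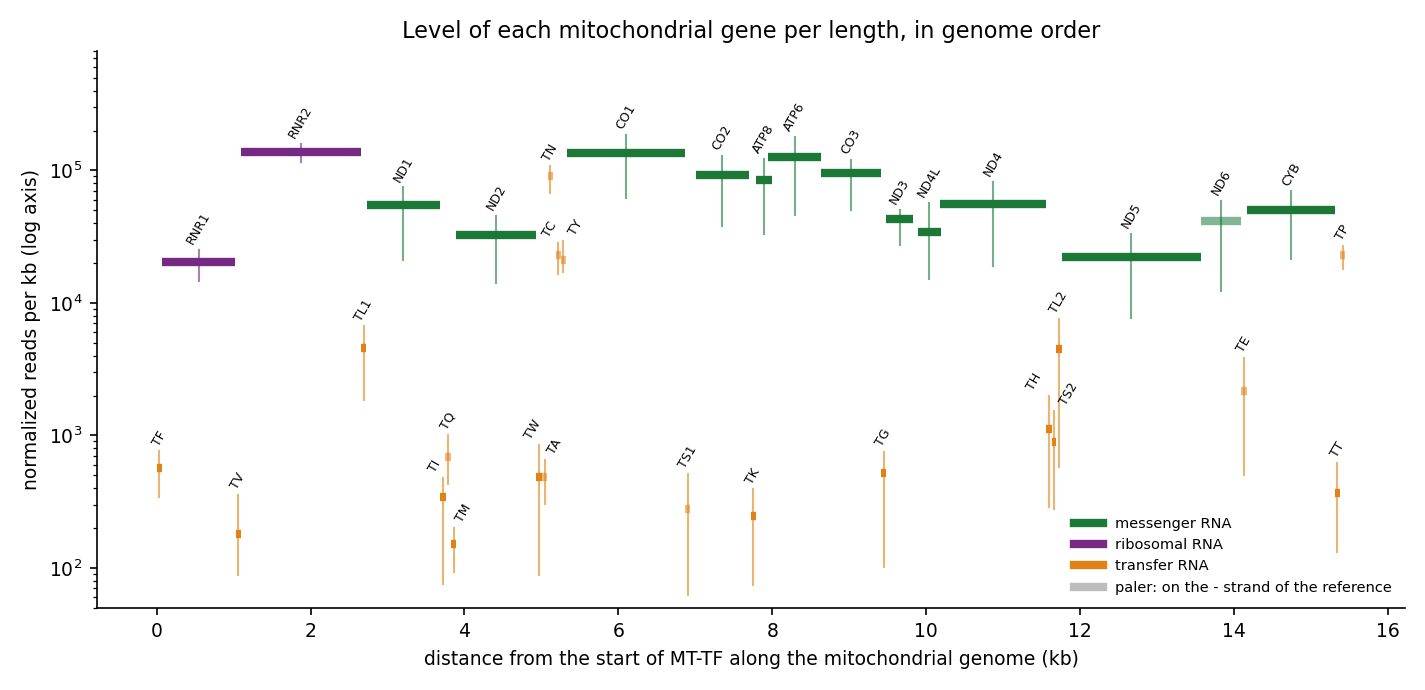
The 35 mitochondrial genes in genome order, with the distance from the start of MT-TF in kb on the horizontal axis and normalized reads per kb of gene on a log vertical axis. Each horizontal bar spans a gene at its mean over the 6 libraries and each vertical line runs from the lowest to the highest library; messenger RNAs lie between 22160 and 134506 per kb, and most transfer RNAs lie below them, with MT-TN, MT-TC, MT-TY and MT-TP as the highest of their class.

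Among the messenger RNAs, 12 of 13 had a higher fitted level in ALDH high and 1, MT-ND3, a lower one. None passed the test. Differences were taken as ALDH high minus ALDH low, on the log2(normalized reads + 1) scale from limma, fitted over all 16000 genes with Benjamini-Hochberg adjustment and a threshold of 0.05. Their median was 0.60 with a range of -0.15 to 0.97, beside a median of 0.02 over all genes, of which 52.3% were above 0. The adjusted p was 0.984 to 0.986 for the 13, and the same threshold called 0 of 16000 genes, or 0%. At an unadjusted p under 0.05, limma gave 1 of 13 messenger RNAs and 338 of all genes (2.11%). By the same cut edgeR gave 357 and DESeq2 355 of all genes, and both called none after adjustment. With spike-in scaling limma gave 7 of 13 (median 0.73, beside 0.15 over all genes) and 407 of all genes. Leaving out ALDH low 2 gave 8 of 13 and 1697 of all genes, and leaving out ALDH low 1 gave 0 of 13 and 177. None of the 13 was called in these fits. The 13 are cut from shared precursors and are not independent measurements.

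No messenger RNA had groups that did not overlap, where 3.67% of all genes had every ALDH high library above every ALDH low library and 3.32% the reverse. ALDH low 1 was the lowest library for 12 of the 13, with ALDH high 2 lowest for MT-ND3, whereas ALDH low 1 was lowest for 22.5% of all genes. The highest library was ALDH high 3 for 8 messenger RNAs and ALDH high 1 for 5. The highest library exceeded the lowest by 1.85-fold for MT-ND3 up to 4.84-fold for MT-ND6, with a median of 3.54-fold. For genes that averaged 100 normalized reads or more, the median of this ratio was 1.53.

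**Figure D2:**
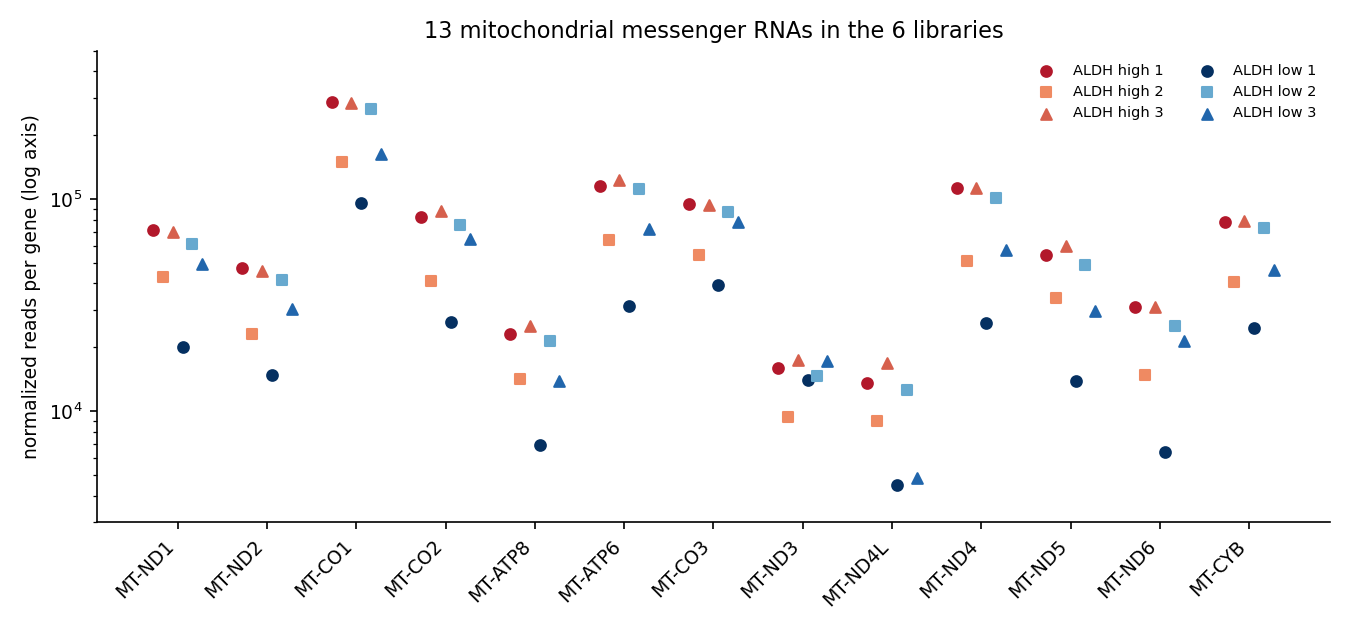
Normalized reads per gene (log axis) of the 13 mitochondrial messenger RNAs, in genome order, with 1 point per library, red shades for ALDH high and blue shades for ALDH low. For 12 of the 13 the lowest point is ALDH low 1, and ALDH low 2 lies near ALDH high 1 and ALDH high 3, so the groups overlap for every gene.

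Complex I, the NADH dehydrogenase, takes 7 of its subunits from this genome. Their median difference was 0.68, with 6 of 7 above 0. MT-ND4L, a small membrane subunit, had 13546, 8973 and 16884 normalized reads in the 3 samples of ALDH high, compared with 4493, 12529 and 4826 in those of ALDH low. ALDH low 2 lay above ALDH high 2, so the groups overlapped. Its difference of 0.97 (SE 0.36, 95% interval 0.16 to 1.78) had the smallest limma p of the 13, 0.0228, with an adjusted p of 0.984.

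MT-ND5, a proton-pumping subunit, had 54477, 34025 and 60078 normalized reads in the ALDH high libraries and 13863, 48894 and 29587 in those of ALDH low. Again ALDH low 2 crossed the other group, and the difference was 0.82 (-0.06 to 1.71, limma adjusted p = 0.984). MT-ND6, the sole messenger RNA coded on the - strand, had 30974, 14820 and 31101 across the ALDH high libraries against 6423, 25174 and 21526 across the ALDH low ones. Its difference was 0.68 (-0.36 to 1.72), and its ratio of highest to lowest library was the widest of the class. The labels do not settle whether libraries kept strand, so its reads and those of a + strand precursor across the same bases cannot be told apart.

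MT-ND4, another proton-pumping subunit, had 113141, 50786 and 112454 normalized reads in the 3 samples of ALDH high, compared with 26102, 100787 and 57443 in those of ALDH low. Its difference was 0.70 (-0.32 to 1.72). MT-ND1, which lies next to the quinone-binding site, and MT-ND2 had differences of 0.60 (-0.24 to 1.44) and 0.47 (-0.37 to 1.31).

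MT-ND3, a short subunit that lies between MT-CO3 and MT-ND4L in the genome, did not share the pattern of the other messenger RNAs. It had 15936, 9390 and 17342 normalized reads in the ALDH high libraries and 13992, 14683 and 17295 in those of ALDH low. The value in ALDH low 1 thus lay within those of the other libraries, and ALDH high 2 was the lowest. The difference was -0.15 (-0.66 to 0.36, limma adjusted p = 0.986).

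Complex III, the cytochrome bc1 complex, takes 1 subunit from this genome, the cytochrome b of MT-CYB. It had 78232, 40822 and 79211 normalized reads across the ALDH high libraries against 24538, 72738 and 46427 across the ALDH low ones. The groups overlapped, with a difference of 0.54 (-0.32 to 1.39).

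Complex IV, the cytochrome c oxidase, has its catalytic core encoded here, and its 3 genes had the smallest median of the complexes, 0.40. MT-CO1, which carries the oxygen-reducing site, had 287652, 149561 and 282076 normalized reads in the 3 samples of ALDH high, compared with 95667, 265992 and 163498 in those of ALDH low. Its group means were 239763 ± 78167 and 175052 ± 85749 (SD, n = 3), and the difference was 0.51 (-0.37 to 1.39, limma adjusted p = 0.984). MT-CO2, which accepts electrons from cytochrome c, and MT-CO3 had differences of 0.40 (-0.50 to 1.30) and 0.28 (-0.45 to 1.02).

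Complex V, the ATP synthase, takes MT-ATP6 and MT-ATP8 of its membrane part from the genome, coded in the overlapping frames printed above. MT-ATP6 had 115045, 63996 and 122698 normalized reads in the ALDH high libraries and 31167, 110978 and 72308 in those of ALDH low, a difference of 0.62 (-0.32 to 1.56). MT-ATP8 differed by 0.67 (-0.13 to 1.48). The ratio of MT-ATP8 to MT-ATP6 reads stayed between 0.191 and 0.222 in the 6 libraries, although either gene varied at least 3.65-fold.

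**Figure D3:**
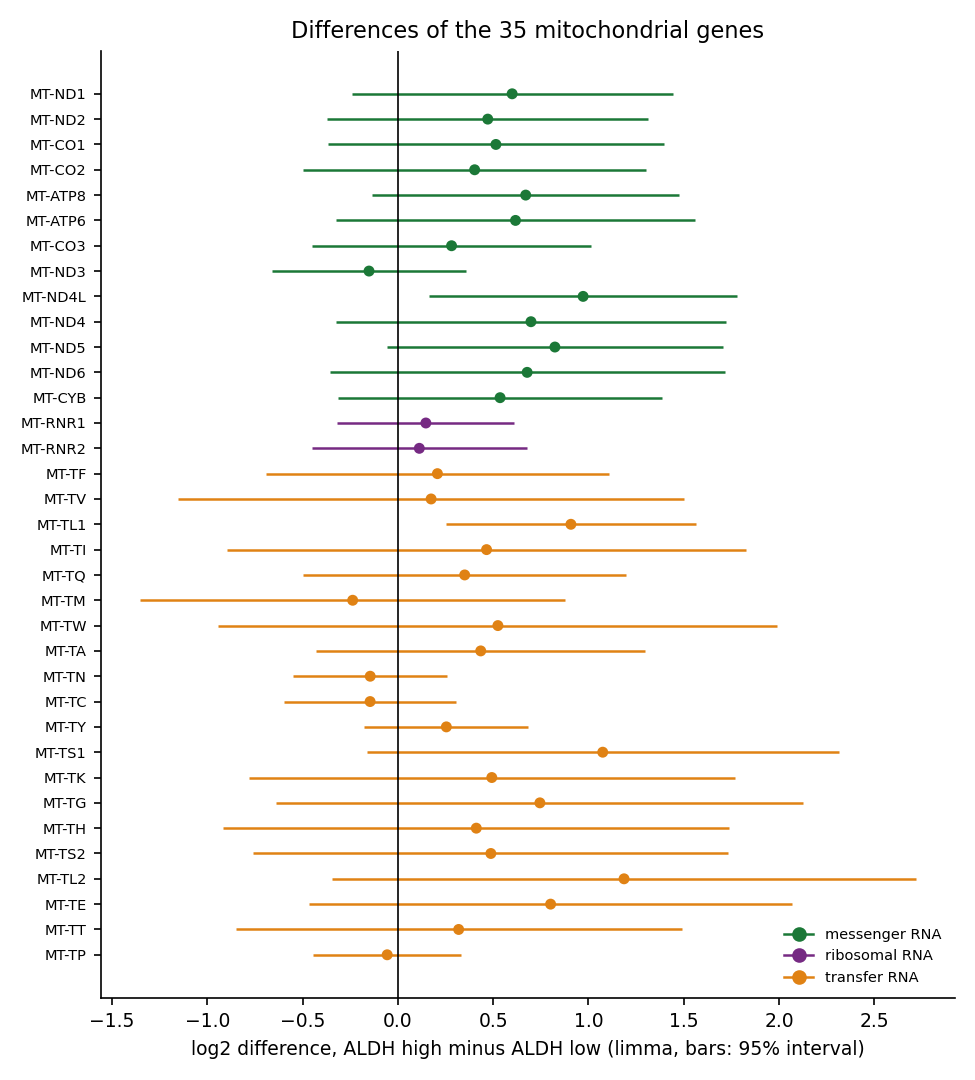
Log2 difference, ALDH high minus ALDH low, of the 35 mitochondrial genes from limma, with 95% intervals as bars, by class and then in genome order. The points of 12 of 13 messenger RNAs lie right of 0, those of both ribosomal RNAs lie near 0, and the intervals of 33 of the 35 genes include 0, the exceptions being MT-ND4L and MT-TL1.

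The size of the differences rested on which libraries were compared. Without both samples numbered 2, which were picked with the correlations above known, so that the p-values here are a description, 13 of 13 messenger RNAs were above 0 with a median of 1.22, beside a median of 0.01 over all genes. In that comparison of 2 samples with 2, MT-ND4L was called by limma at 1.70 with an adjusted p of 0.0191, as were 107 of 16000 genes (0.669%). A further 10 messenger RNAs had an unadjusted p under 0.05, which 15.3% of all genes reached. MT-CO3 and MT-ND3, at 0.76 and 0.10, were the 2 that did not. The ribosomal RNAs then had a median of 0.28, and the transfer RNAs one of 0.71 with 16 of 20 above 0 and none called, MT-TL1 standing at 1.25 (limma adjusted p = 0.16). Leaving out ALDH low 1 alone worked the other way, and brought the median of the 13 from 0.60 to 0.12 with 10 above 0. Single genes moved likewise, MT-ND5 to 0.34, MT-ND4 to 0.18, MT-CO1 to 0.14 and MT-ND6 to 0.06. MT-ND4L, whose level was also low in ALDH low 3, moved less, from 0.97 to 0.71.

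Within the mitochondrial messenger RNA pool, most shares varied less between libraries than the amounts did, but the share of MT-ND3 varied more, 2.79-fold against 1.85-fold for its amount. MT-CYB held 7.62%, 7.45% and 7.58% of these reads across the ALDH high libraries against 7.58%, 7.75% and 7.14% across the ALDH low ones. MT-CO1, the largest item, held 28.003%, 27.3% and 27.0% in the 3 samples of ALDH high, compared with 29.5%, 28.3% and 25.2% in those of ALDH low. The share of MT-ND5 did not overlap between groups, with 5.30%, 6.21% and 5.75% in the ALDH high libraries and 4.28%, 5.21% and 4.55% in those of ALDH low. Its two-sided exact permutation p was 0.1, the smallest that 3 samples against 3 can give, and 0.65 after Benjamini-Hochberg adjustment over the 13 shares.

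MT-ND3 had the widest range of shares. It held 1.55%, 1.71% and 1.66% across the ALDH high libraries against 4.32%, 1.56% and 2.66% across the ALDH low ones (exact permutation p = 0.3, adjusted p = 0.65). MT-CO3, just upstream of it, held 9.19%, 9.92% and 9.02% in the 3 samples of ALDH high, compared with 12.2%, 9.27% and 12.05% in those of ALDH low (exact permutation p = 0.2). In both cases ALDH low 1 and ALDH low 3 stood above the other 4 libraries. The ratio of MT-ND3 to MT-CO3 reads was 0.354 in ALDH low 1 and 0.221 in ALDH low 3, against 0.169 to 0.184 elsewhere.

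MT-ND4L showed the opposite at ALDH low 3, where it held 0.742% of the messenger RNA reads, against 1.32% to 1.64% in the other 5 libraries. It had 0.084 reads per read of MT-ND4, with which it shares a messenger RNA, in that library, and 0.120 to 0.177 in the others. Summed by complex, complex I held 33.7%, 33.6% and 33.8% in the ALDH high libraries and 30.8%, 32.5% and 32.4% in those of ALDH low. Complex IV held 45.2%, 44.7% and 44.4% across the ALDH high libraries against 49.9%, 45.6% and 47.2% across the ALDH low ones. Neither of these sums overlapped between groups. Complex V held 13.4%, 14.3% and 14.2% across the ALDH high libraries against 11.8%, 14.1% and 13.3% across the ALDH low ones. Its groups overlapped, as did those of complex III, which is MT-CYB alone. The shares of the complexes add up to the whole, so they are not separate results. No test was run on a sum over genes.

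**Figure D4:**
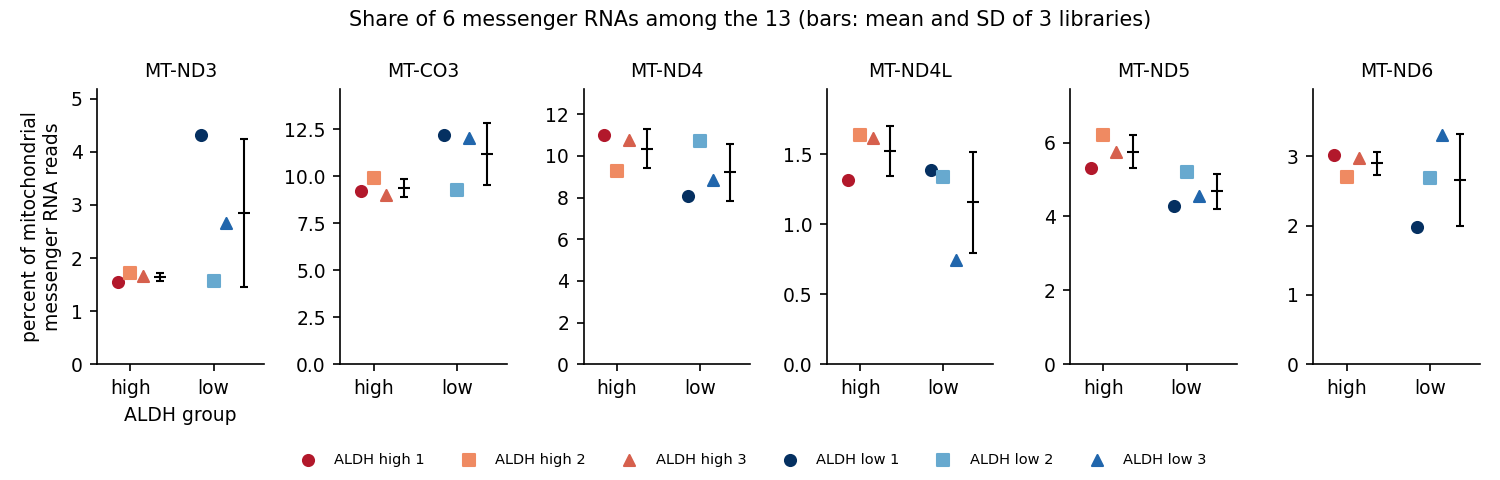
Percent of the mitochondrial messenger RNA reads held by 6 of the 13 genes, 1 panel per gene, with 1 point per library and black bars for the mean and SD of the 3 libraries of a group. The MT-ND3 share is 4.32% and 2.66% in ALDH low 1 and ALDH low 3 against 1.55% to 1.71% in the other 4, MT-ND4L is lowest in ALDH low 3 at 0.742%, and MT-ND5 is the gene of these whose groups do not overlap.

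The 2 ribosomal RNAs varied less than the messenger RNAs. MT-RNR2 had 241254, 179537 and 246643 normalized reads in the 3 samples of ALDH high, compared with 182137, 225445 and 205730 in those of ALDH low. Its highest library was 1.37-fold above its lowest, and the difference was 0.11 (-0.45 to 0.68, limma adjusted p = 0.988). MT-RNR1 had 20281, 18238 and 22085 in the ALDH high libraries and 13894, 18126 and 23881 in those of ALDH low, a difference of 0.15 (-0.32 to 0.61, limma adjusted p = 0.985). For both genes the groups overlapped.

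As the messenger RNAs varied and the ribosomal RNAs varied less, their ratio moved with the library. There were 255, 361 and 257 ribosomal reads per 1000 messenger RNA reads across the ALDH high libraries against 605, 260 and 353 across the ALDH low ones. ALDH low 1 stood highest, ALDH high 2 and ALDH low 3 lay close to each other, and ALDH low 2 lay with ALDH high 1 and ALDH high 3.

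Transfer RNA reads were few, at 0.036% to 0.055% of gene reads, and most came from 4 genes. MT-TN, MT-TP, MT-TC and MT-TY, all on the - strand, had mean levels of 1387 to 6682 normalized reads, and the other 16 had 10.3 to 341. Also on the - strand were MT-TE, MT-TQ, MT-TS1 and MT-TA, the neighbour of MT-TN, with means of 149, 49.4, 19.3 and 33.2. MT-TN and MT-TC lie on either side of the origin of light-strand replication, with MT-TY next to MT-TC, and MT-TP lies next to the control region. These 4 held 88.2%, 88.8% and 87.2% of the transfer RNA reads in the 3 samples of ALDH high, compared with 96.5%, 90.5% and 89.7% in those of ALDH low, without overlap. Whether the libraries kept strand is left unsaid by the labels, so reads from either strand at these positions cannot be told apart.

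The 4 genes varied as little as the ribosomal RNAs. MT-TN had 6584, 4973 and 7592 normalized reads in the ALDH high libraries and 6810, 6290 and 7843 in those of ALDH low. ALDH low 1 was not low here, and the difference was -0.14 (-0.55 to 0.26, limma adjusted p = 0.984). The ratios of highest to lowest library were 1.49 for MT-TP, 1.58 for MT-TN, 1.71 for MT-TY and 1.72 for MT-TC, and the differences were -0.06, -0.14, 0.25 and -0.15. MT-TP was above 0, at 0.08, when libraries were scaled to the spike-in reads.

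The other 16 transfer RNAs had up to 13.3-fold between libraries. ALDH low 1 was the lowest library for 13 of them. MT-TL2, a second leucine transfer RNA, had 458, 213 and 541 normalized reads across the ALDH high libraries against 40.7, 292 and 368 across the ALDH low ones, with the largest difference of the class at 1.19 (-0.34 to 2.72), which was 0.19 without ALDH low 1. MT-TE had 158, 108 and 264 in the 3 samples of ALDH high, compared with 34.7, 106 and 225 in those of ALDH low, a difference of 0.80 (-0.47 to 2.07), which was 0.09 without ALDH low 1.

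Of all 20 transfer RNAs, 16 were above 0 under the deposited scaling and 17 under spike-in scaling, with a median of 0.42 and none called. Without ALDH low 1 the direction turned, with 8 of 20 above 0 and a median of -0.09. MT-TL1 and MT-TS1 were the 2 of 20 whose groups did not overlap, both higher in ALDH high, where 3.67% of all genes did so. MT-TL1 had 420, 391 and 498 normalized reads in the ALDH high libraries and 139, 333 and 267 in those of ALDH low. Its difference of 0.91 (SE 0.30, 0.25 to 1.56) had a limma p of 0.0111 and an adjusted p of 0.984. MT-TS1, a serine transfer RNA, had 23.0, 18.25 and 35.4 across the ALDH high libraries against 4.33, 16.6 and 18.21 across the ALDH low ones. Its difference was 1.08 (-0.16 to 2.31), and its closest values, in ALDH high 2 and ALDH low 3, lay less than 1 normalized read apart. Without ALDH low 1 the difference was 0.54 for MT-TL1 and 0.48 for MT-TS1.

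MT-TL1 lies directly between MT-RNR2 and MT-ND1, where the termination factor MTERF1 is known to bind. Per 1000 reads of MT-RNR2 there were 1.74, 2.18 and 2.02 reads of MT-TL1 in the 3 samples of ALDH high, compared with 0.761, 1.48 and 1.30 in those of ALDH low, again without overlap. Per 1000 reads of MT-ND1 there were 5.89, 9.11 and 7.16 in the ALDH high libraries and 6.89, 5.42 and 5.39 in those of ALDH low, and these overlapped. In the authors' deposited table MT-TL1 had the smallest p of the 35 genes, 0.00471, followed by MT-ND5 at 0.0441, and their adjusted p was 0.998.

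Transfer RNAs that directly follow a messenger RNA with an incomplete stop codon had far lower levels per length than that messenger RNA, as most transfer RNAs had, and MT-TM, MT-TV, MT-TK and MT-TS1, which do not follow such a gene, were lower still. Per kb, averaged over the libraries, MT-TI stood at 0.626% of MT-ND1, MT-TW at 1.49% of MT-ND2, MT-TG at 0.551% of MT-CO3, MT-TH at 2.02% of MT-ND4 and MT-TT at 0.732% of MT-CYB. In single libraries these values ran from 0.202% for MT-TG to 4.77% for MT-TH. Such genes are short beside a read, and the sources used here do not say how reads across the junctions printed above were assigned.

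Transfer RNA reads per 1000 messenger RNA reads were 12.4, 17.3 and 14.2 across the ALDH high libraries against 35.2, 12.2 and 22.0 across the ALDH low ones. This ratio was set by the 4 abundant genes, which gave 10.97, 15.4 and 12.4 in the 3 samples of ALDH high, compared with 33.9, 11.1 and 19.7 in those of ALDH low. The other 16 gave 1.47, 1.95 and 1.81 in the ALDH high libraries and 1.24, 1.16 and 2.26 in those of ALDH low. For all transfer RNAs together the difference of the means was -8.47, and it was -2.45 without ALDH low 1.

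**Figure D5:**
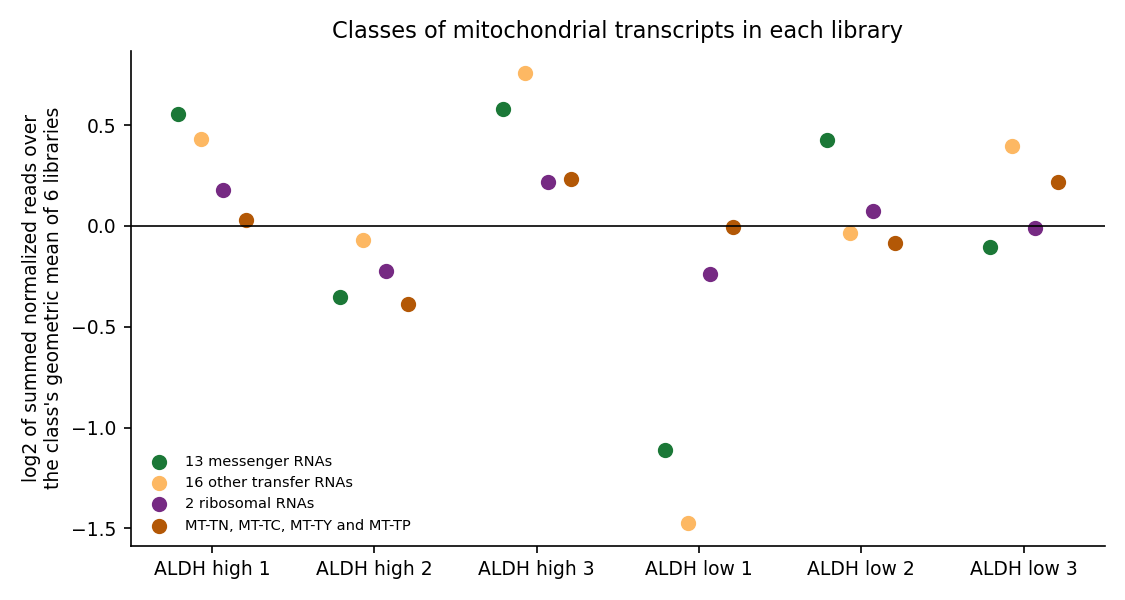
Summed normalized reads of 4 groups of mitochondrial genes in each library, as log2 of the sum over the geometric mean of that group's 6 sums. In ALDH low 1 the messenger RNAs and the 16 other transfer RNAs lie far below 0, whereas the ribosomal RNAs and MT-TN, MT-TC, MT-TY and MT-TP lie within about the range of the other libraries.

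The nuclear genome carries copies of mitochondrial genes, and 5 such pseudogenes were in the table. MTATP6P1 on chromosome 1 (633696 to 634376, + strand) is 98.5% identical to MT-ATP6, with an identical run of up to 141 bases, and had 3.21% to 4.21% of the MT-ATP6 level across the libraries. MTCO1P12, MTND2P28 and MTCO3P12 are 98.2% to 98.6% identical to their parents and had at most 0.282% of the parent level. MTND4P20 on chromosome 10 is 72.1% identical and had 0.050% to 0.146% of MT-ND4. All 5 were above 0, from 0.36 to 0.62, with a limma adjusted p of 0.984, and ALDH low 1 was the lowest library for 4 of the 5. Whether those reads came from the nuclear copies or from mitochondrial RNA cannot be told apart, and reads that lie wholly within an identical run would not count as uniquely placed for either gene.

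The proteins that copy, cut, modify and translate these RNAs are made from nuclear genes, and all 83 of a list of them were in the table. None passed the test, and 1, TEFM, had an unadjusted limma p under 0.05. Under the deposited scaling 24 were above 0 and 59 below, with a median of -0.07. That split rests on the scaling: 34 were above 0 with total-count scaling, 39 with scaling to reads outside the mitochondrial genome and 54 with spike-in scaling, while 52.3%, 59.8%, 62.6% and 73.6% of all genes were above 0 under the same 4 scalings. The 95% interval lay within 2-fold either way for 82 of the 83.

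Transcription genes had 1 of 9 above 0 and 3 of 9 with spike-in scaling. TEFM, the elongation factor of the mitochondrial polymerase, had 293, 291 and 281 normalized reads across the ALDH high libraries against 530, 366 and 360 across the ALDH low ones. All ALDH low libraries stood above all ALDH high libraries, with a difference of -0.51 (-0.96 to -0.07, limma p 0.0277, adjusted to 0.984). TFAM, which packages the genome and starts transcription, had 1877, 2325 and 1772 in the 3 samples of ALDH high, compared with 3068, 2015 and 2183 in those of ALDH low, a difference of -0.27 (-0.69 to 0.15). POLRMT, the polymerase, differed by -0.08 (-0.38 to 0.22) and by 0.06 with spike-in scaling. TFB1M, a ribosomal RNA methyltransferase, differed by 0.11.

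In all, 6 of the 83 genes had every ALDH low library above every ALDH high library under the deposited scaling, as did 3.32% of all genes, and none showed the reverse. Beside TEFM these were MTERF1, the termination factor (-0.20), TRMT10C, a subunit of the enzyme that cuts the 5′ end of transfer RNAs (-0.24), TBRG4, an RNA-binding protein of the FASTK family (-0.19), the exonuclease REXO2 (-0.19) and the pseudouridine synthase RPUSD4 (-0.22). TEFM and TRMT10C are named as the lowest differences of their lists, and the other 4 were picked because their groups did not overlap.

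Genes that cut the precursors had 1 of 4 above 0, and 3 of 4 with spike-in scaling. ELAC2, which cuts the 3′ end of transfer RNAs, differed by 0.04, and HSD17B10, the partner of TRMT10C, by -0.12, or 0.01 with spike-in scaling. Of the 15 genes for RNA stability and decay, 5 were above 0, and 8 with spike-in scaling. LRPPRC stabilises mitochondrial messenger RNAs. It had 6377, 7158 and 5927 normalized reads in the ALDH high libraries and 6904, 6595 and 5689 in those of ALDH low. The difference of LRPPRC was 0.02 (-0.31 to 0.35). Its partner SLIRP had 1540, 1046 and 1620 across the ALDH high libraries against 2673, 1335 and 1776 across the ALDH low ones, a difference of -0.43 (-0.99 to 0.14), and the helicase SUPV3L1 differed by 0.10.

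Replication and maintenance genes had 7 of 13 above 0 (10 with spike-in scaling), among them POLG2, the accessory subunit of the DNA polymerase, at 0.08, with SSBP1, the single-strand binding protein, at -0.16 and RNASEH1 at -0.17. RNA modification genes had 7 of 20 above 0 (14 with spike-in scaling), with TRNT1, which adds the CCA end of transfer RNAs, at -0.30, TRUB2 at -0.09 and ALKBH1 at 0.14. All 14 translation genes were below 0 under the deposited scaling, and 10 were above 0 with spike-in scaling. They included the elongation factors TUFM, at -0.10, and GFM1, at -0.22, and C12orf65, at -0.001 and at 0.13 with spike-in scaling.

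Of the 8 regulators of mitochondrial biogenesis, 3 were above 0 under the deposited scaling, 5 with total-count scaling and 6 with spike-in scaling. The coactivator PPARGC1A had 42.9, 21.9 and 25.1 normalized reads in the 3 samples of ALDH high, compared with 7.80, 26.4 and 13.9 in those of ALDH low. ALDH low 2 lay above ALDH high 2 and 3, and the difference was 0.96 (-0.15 to 2.06, limma adjusted p = 0.984). The nuclear receptor ESRRA differed by -0.25 (-0.63 to 0.13).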

How the data were processed

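Poly(A) RNA of 6 libraries was sequenced. Trimmomatic 0.36, STAR 2.5.2b, Subread 1.5.2 (featureCounts) and DESeq2 were used with GRCh38, per the submitters' processing notes. The sources used here do not name the annotation release. Per the labels, unique reads within exons were counted. The authors deposited a normalized signal per gene and library (reads over a size factor), with their log2 fold change (ALDH low over ALDH high), p-value and adjusted p-value. Of 16046 rows, 46 were ERCC spike-ins; the lowest row mean was 9.65, so the table starts at a minimum level. At least 99.99% of values gave whole reads within 0.02, and totals were 23817310 to 30617873 with spike-ins. This depth limits precision least for the messenger RNAs and most for the rare transfer RNAs.

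The main test was limma 3.58.1 (R 4.3.3, trend) on log2(normalized reads + 1) for all 16000 genes, which understates changes of low genes. It was tried on simulated data that changed only genes above 100 reads, with less spread than the mitochondrial messenger RNAs had. The simulation therefore does not show how the test performs at that spread or for rarer transfer RNAs. Alternatives were edgeR 4.0.16 and DESeq2 1.42.0 on recovered reads, limma-voom, pseudocounts 0.5 and 10, a mean of at least 100, other scalings, a replicate block, and left-out samples. Coordinates, counted from 1, lengths and sequences are from GENCODE 29, which matched 15939 identifiers. The members and lists were chosen with earlier results of these data known. Named were all MT- genes, the pseudogenes, TFAM, POLRMT and LRPPRC, and per list of nuclear genes the members with the highest and lowest difference and the highest mean.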

Additional observations from a re-analysis of the deposited data

How the results depend on the processing

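Of 617 alternative values for the 35 mitochondrial genes, 591 kept direction and call. No mitochondrial gene was called under any alternative except MT-ND4L without both samples numbered 2 (1 messenger RNA called, 107 genes in all); spike-in scaling called 1 gene of the table and moved the median of all genes by 0.13. The messenger RNA share of reads differed by 2.16 percentage points without both samples numbered 2. The count of messenger RNA shares without overlap ranged from 1 to 6 when 1 library was left out and was 7 without both samples numbered 2, and fewer samples overlap less. The median of the messenger RNAs ranged from 0.12, without ALDH low 1, to 0.92; it was 0.49 by edgeR and by DESeq2. Without ALDH low 1, transfer RNAs above 0 fell to 8. Differences that changed sign without both samples numbered 2 were MT-TF at -0.24, MT-TV at -0.36, MT-TM at 0.090, MT-ND3 at 0.096, MT-TP at 0.051, LRPPRC at -0.028 and ALKBH1 at -0.019. With spike-in scaling they were MT-TP at 0.079, POLRMT at 0.057, HSD17B10 at 0.010, TRUB2 at 0.046, TUFM at 0.030 and C12orf65 at 0.13. MT-TP was at 0.0045 and C12orf65 at 0.059 with scaling to reads outside the mitochondrial genome, and C12orf65 at 0.043 with total counts and 0.00012 with limma-voom. Leaving out each library in turn gave changes of sign within these ranges: MT-TF -0.058 to 0.53, MT-RNR1 -0.047 to 0.34, MT-TV -0.33 to 0.55, MT-TI -0.33 to 0.91, MT-TW -0.36 to 1.17, MT-TN -0.28 to 0.024, MT-TC -0.30 to 0.043, MT-CO2 -0.068 to 0.75, MT-TK -0.085 to 0.94, MT-CO3 -0.072 to 0.55, MT-TG -0.060 to 1.30, MT-ND3 -0.32 to 0.12, MT-TH -0.32 to 1.04, MT-TS2 -0.094 to 0.96, MT-TT -0.22 to 0.83, MT-TP -0.14 to 0.091, POLG2 -0.0041 to 0.17, HSD17B10 -0.25 to 0.093, ELAC2 -0.050 to 0.11, LRPPRC -0.061 to 0.084, TRUB2 -0.21 to 0.080, TUFM -0.22 to 0.067 and C12orf65 -0.13 to 0.16. Leaving out ALDH low 1 made 11 of the 18 such changes among mitochondrial genes. The cause was not tested. Deviations of same-numbered samples from their group means had correlations of -0.46, -0.43 and 0.14. Such deviations depend on each other within a group, and whether same-numbered samples shared a sort or culture was not tested. The fit with the replicate number as a block called 0 genes, with 226 at an unadjusted p under 0.05. Depth limits the rarest transfer RNAs, such as MT-TM with 61 reads over the 6 libraries.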
